A study of Rattus with 12 samples.

Results

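Transcripts of 9 genes of the oligodendrocyte lineage were followed in complex rat cultures after exposure to fentanyl, a synthetic opioid that acts on the mu-opioid receptor. The genes were chosen by symbol as Pdgfra, Cspg4, Olig1, Olig2, Sox10, Nkx2-2, Gpr17, Bcas1 and Enpp6, and all 9 were found among the 17337 genes of the count table and among the 12271 genes tested. The 12 cultures held primary Sprague Dawley cells, namely cortical neurons and astrocytes from one supplier and oligodendrocyte precursor cells (OPCs) from another, seeded together as a mixture, so the table records all cell types at once. At 24 to 26 days in vitro, 4 cultures received 0.01 μM fentanyl (low dose; cultures B, H, N and Q), 4 received 10 μM (high dose; C, I, O and R) and 4 received medium alone (untreated; A, G, M and P), for 4 days. The letters come from the labels and run through the doses as ABC, GHI, MNO and PQR, with 1 culture per dose in each. These are called letter sets here, and neither the labels nor the methods say what a letter stands for. The comparison asks whether the precursor and maturation genes of this lineage differed with the dose.

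OPCs are the proliferating cells of the central nervous system from which oligodendrocytes arise, and they depend on platelet-derived growth factor, which binds the receptor encoded by Pdgfra. The transcription factors Olig1, Olig2, Sox10 and Nkx2-2 specify this lineage and drive it towards myelin gene expression. A precursor that commits to differentiation loses Pdgfra and Cspg4 and passes through a stage marked by Gpr17, Bcas1 and Enpp6 before it makes compact myelin.

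The total count per culture was 12059872 to 17023909 in the untreated, 12907388 to 16512387 in the low dose and 15102785 to 24813893 in the high dose condition. Levels are given as CPM, the share of a library's counts taken by a gene, after TMM scaling, and no member had fewer than 53 counts in any culture. The lineage was detected in every culture, with the myelin protein transcript Mbp at 904 to 9866 CPM beside the 9 genes. Culture G stood apart from the other 11. Its level of the neuronal nuclear protein gene Rbfox3 was 1.297 CPM against 58.6 to 93.5 CPM elsewhere, and its 12 neuron markers summed to 564 CPM against at least 3945 CPM. Since untreated culture G enters every comparison with the untreated condition, fitted results of the 9 members are given with and without it. Because RNA was taken from whole cultures, fewer cells of a type and less RNA per cell cannot be told apart. Nothing in the labels says how independently the cultures were raised, so p-values measure the spread between these 12 cultures only.

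No member passed the test in any comparison of the conditions. In edgeR's quasi-likelihood test each of the 9 genes had an adjusted p of 1 in all 3 comparisons (low dose or high dose against untreated, and the doses against each other), and the 3 conditions overlapped for every gene. No gene of the table was a differentially expressed gene (DEG; edgeR adjusted p under 0.05 with an absolute log2 fold change above 0.5) in any of the 3 comparisons (0.00% of 12271 each). DESeq2 gave 0, 3 and 1 DEGs, none of them a member. At an unadjusted p under 0.05 edgeR held 91 genes (0.742%), 146 genes (1.19%) and 144 genes (1.17%) of the table in these comparisons, with 0 members in each. For each of the 9 genes more of the variance lay between letter sets than between doses, and culture A had the lowest level of each of them.

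Pdgfra, the receptor that marks OPCs, stood at 93.3, 335, 149 and 160.3 CPM in untreated cultures A, G, M and P. It stood at 106, 107, 166 and 163 CPM in low dose cultures B, H, N and Q and at 98.6, 126, 136 and 172 CPM in high dose cultures C, I, O and R. Culture G was far above all others and the remaining 11 fell between 93.3 and 172 CPM, so the condition means of 184 ± 105 (SD, n = 4), 135 ± 33.2 and 133 ± 30.5 CPM overlapped. Cspg4, which encodes the NG2 proteoglycan on the OPC surface, followed the same order within the untreated condition, with 9.501, 75.4, 28.8 and 32.9 CPM. The low dose cultures held 12.5, 20.01, 29.7 and 25.6 CPM and the high dose cultures 16.8, 26.9, 35.5 and 35.3 CPM. In each letter set the high dose culture held more Cspg4 than the low dose culture. The conditions overlapped, with A, B and C each the lowest of its condition, but overlap takes no account of the letter sets. For high dose vs. low dose the log2 fold change of 0.38 (SE 0.37) had an edgeR adjusted p of 1. That fit held no term for the letter sets. The exact two-sided permutation test on log2(CPM + 1) gave p = 0.286 for this comparison, the smallest among 27 such tests on members, where 0.0286 is the smallest that 4 against 4 cultures can give. After adjustment over these 27 tests every exact permutation p was 1. The permutation test did not take account of the letter sets either.

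The cell types that also express the surface genes were checked, since Pdgfra is made by fibroblasts and Cspg4 by pericytes. Culture G held 68.3 CPM of the fibroblast proteoglycan gene Dcn against at most 2.27 CPM elsewhere, 381 CPM of the collagen gene Col3a1 and 71.9 CPM of Pdgfrb, the highest level of each of the 3 in any culture. The 12 fibroblast and pericyte markers summed to 347 to 2049 CPM in the untreated, 419 to 3407 CPM in the low dose and 387 to 638 CPM in the high dose condition. Low dose culture N had the highest sum, with Col1a1 at 1265 CPM and the smooth muscle actin gene Acta2 at 109 CPM, while its Pdgfra level of 166 CPM lay near those of M and O. The pericyte markers Rgs5 and Kcnj8 reached at most 1.08 and 0.908 CPM in any culture. The part of such cells in the Pdgfra and Cspg4 levels of culture G was not tested.

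The means of the 4 transcription factor genes lay within 1 SD of each other in all conditions. Olig1 stood at 43.9, 469.9, 420 and 509 CPM in untreated A, G, M and P, at 55.6, 388, 243 and 521 CPM in the low dose and at 63.4, 359, 312 and 484 CPM in the high dose cultures. The condition means were 361 ± 214, 302 ± 199 and 305 ± 176 CPM (SD, n = 4 each). Each condition held 1 culture under 64 CPM, from letter set ABC, and 3 cultures of at least 243 CPM. Olig2, the lineage factor the study also stained for, stood at 59.4, 160.3, 195 and 239.6 CPM in the untreated, 77.0, 185, 131 and 229.7 CPM in the low dose and 79.3, 196, 167 and 236 CPM in the high dose condition. Its means of 164 ± 76.6, 156 ± 66.2 and 169 ± 66.5 CPM differed by far less than their spread.

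Sox10, a factor shared by all stages of the lineage, stood at 55.7, 220.1, 166 and 237 CPM in the untreated condition. It stood at 70.4, 196, 141 and 235 CPM in the low dose and at 70.1, 192, 167 and 257 CPM in the high dose condition, where P, Q and R were again highest and A, B and C lowest. Nkx2-2, which is known to repress Pdgfra as precursors begin to differentiate, had the lowest counts of the 9. Its levels were 3.13, 19.5, 9.74 and 19.0 CPM in untreated, 5.16, 9.76, 9.40 and 20.7 CPM in low dose and 5.51, 13.3, 13.8 and 21.1 CPM in high dose cultures. The conditions overlapped for Nkx2-2, with means of 12.8 ± 7.88, 11.3 ± 6.64 and 13.4 ± 6.35 CPM (SD, n = 4 each).

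The 3 genes of committed precursors and newly formed oligodendrocytes spanned the widest ranges. Gpr17, a receptor made transiently as precursors commit, stood at 5.37, 26.0, 43.4 and 69.2 CPM in untreated A, G, M and P. Low dose cultures held 9.23, 33.7, 27.7 and 64.6 CPM and high dose cultures 14.8, 53.6, 52.7 and 69.3 CPM. The high dose culture held the most Gpr17 in each letter set, but in PQR its difference from the untreated culture rounded to 0.00 on the log2(CPM + 1) scale, and the condition means of 36.0 ± 27.0, 33.8 ± 23.0 and 47.6 ± 23.2 CPM overlapped. On the reference annotation the span of Gpr17 overlaps that of Lims2. Exons were not compared, and the strand setting of the counting is not given in the sources used here. Whether reads of one of the 2 genes were counted for the other therefore cannot be told. Lims2 ranged from 6.37 CPM in A to 54.2 CPM in G, the culture in which Gpr17 was only 26.0 CPM.

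Bcas1, a marker of early myelinating oligodendrocytes, stood at 58.1, 271, 534 and 919 CPM in untreated, 86.1, 570.4, 334 and 872 CPM in low dose and 120.1, 638, 561 and 903 CPM in high dose cultures. The condition means were 446 ± 371, 466 ± 335 and 555 ± 325 CPM (SD, n = 4 each), with complete overlap. Enpp6, which encodes a choline phosphodiesterase of newly formed oligodendrocytes, stood at 7.67, 23.7, 51.8 and 167 CPM in untreated, 9.70, 65.3, 37.8 and 148 CPM in low dose and 8.41, 56.8, 61.3 and 135 CPM in high dose cultures. Its highest culture exceeded its lowest by 21.7-fold, against 3.59-fold for Pdgfra. The means of Enpp6 in the 3 conditions were 62.4 ± 71.8, 65.2 ± 59.7 and 65.3 ± 52.1 CPM, with an SD about as large as the mean.

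**Figure D1:**
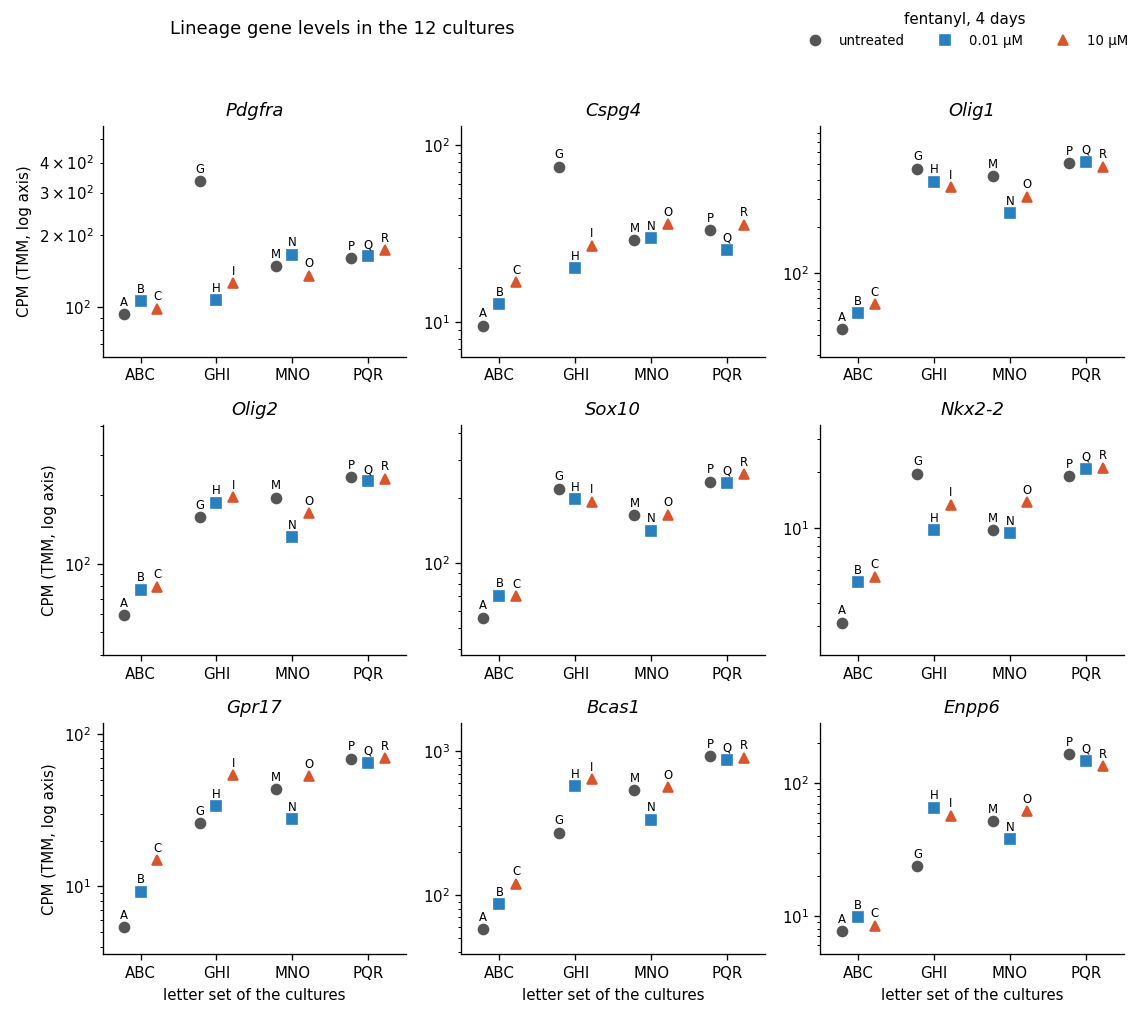
Level of each lineage gene in the 12 cultures (CPM after TMM scaling, log axis), arranged by letter set, with 1 point per culture, its letter above it and the dose as colour and shape. For all 9 genes culture A lies lowest and ABC lies below the other sets, while culture G lies highest for Pdgfra at 335 CPM and Cspg4 at 75.4 CPM but below H and I for Bcas1 and Enpp6.

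The letter sets were the main axis along which the lineage genes varied. In ABC, Bcas1 averaged 88.1 ± 31.0 CPM (SD, n = 3 cultures of different dose), against 493 ± 195 in GHI, 477 ± 124 in MNO and 898 ± 24.1 CPM in PQR. Enpp6 was likewise lowest in ABC and highest in PQR, with 8.59 ± 1.02, 48.6 ± 21.98, 50.3 ± 11.8 and 149.8 ± 16.0 CPM in the same sequence of sets, and for both genes GHI and MNO did not differ beyond their spread. Gpr17 averaged 9.81 ± 4.75, 37.7 ± 14.2, 41.3 ± 12.6 and 67.7 ± 2.69 CPM in these sets. The 4 transcription factors had means in the order ABC, MNO, GHI and PQR from lowest to highest, and for Sox10 these means were 65.4 ± 8.39, 158 ± 14.8, 203 ± 15.1 and 243 ± 12.04 CPM. Pdgfra was the flattest, with 99.3 ± 6.44 CPM in ABC, 149.8 ± 15.1 in MNO and 165 ± 6.38 in PQR, and its mean of 189 ± 126 CPM in GHI rested on culture G.

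Of the variance of log2(CPM + 1) between the 12 cultures, the letter set held 97.8% for Sox10, 97.3% for Olig1, 94.0% for Olig2 and Enpp6, 91.5% for Bcas1, 87.6% for Nkx2-2 and 87.2% for Gpr17, as a description with no test. The dose held between 0.238% for Sox10 and 7.06% for Gpr17 among these 7 genes. Over all genes tested the medians were 55.7% for the letter set and 8.70% for the dose. The surface genes were lower on the first measure, with 40.1% for Pdgfra and 61.4% for Cspg4. Without culture G these became 91.3% and 85.2%, where the median of all genes was 75.3%. The dose share of Pdgfra went from 10.6% to 0.0867% when G was left out. That of Cspg4 went the other way, from 7.60% to 9.95%, where the median of all genes without G was 7.96%. Other cell types also differed between the sets. The 10 microglia markers, of which only Cx3cr1 was at 0 in a culture (R), summed to 22.8 to 31.0 CPM in PQR and to at least 231 CPM elsewhere. The proliferation marker Mki67 stood at 4.49, 5.62 and 8.71 CPM in A, B and C against at least 13.5 CPM in the other 9 cultures. Aurkb, of the same list of 10 proliferation genes, was not low there, at 118, 182 and 171 CPM against 14.7 to 153 CPM elsewhere. The mean log2(CPM + 1) of the list was 2.70 to 3.01 in ABC and at least 3.31 elsewhere. Its summed CPM overlapped, with 232 to 289 CPM in ABC and 221 to 296 CPM elsewhere. The part of these cell types and of proliferation in the lineage levels was not tested.

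**Figure D2:**
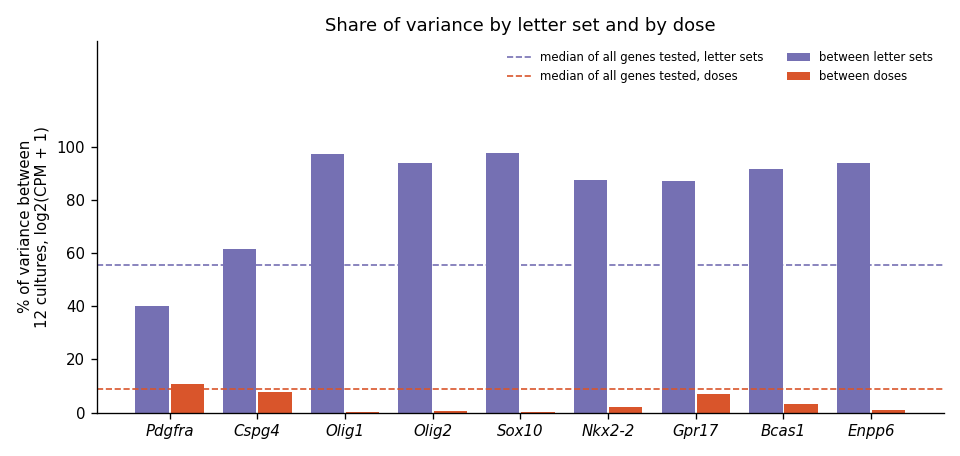
Percent of the variance of log2(CPM + 1) between the 12 cultures that lies between letter sets (violet bars) and between doses (orange bars) for each gene, with the medians of all 12271 genes as dashed lines. For 8 of the 9 genes the letter set bar is above the median of 55.7%, and the dose bar is below the median of 8.70% for all but Pdgfra.

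Ratios of counts within one library do not depend on its scaling and show how the late genes stood against the early ones. For each count of Pdgfra there were 0.623, 0.811 and 1.22 counts of Bcas1 in A, B and C, whereas the ratio was 5.73, 5.36 and 5.24 in P, Q and R. In M, N and O it was 3.60, 2.02 and 4.14. Culture G, with a ratio of 0.810, resembled ABC in this measure and not H and I of its own letter set, which stood at 5.32 and 5.05. The ratio of Enpp6 to Pdgfra gave the same picture, with 0.0707 in G, 0.609 in H and 0.450 in I, and 0.0822 to 0.0914 in A, B and C. The high dose culture did not take the same place in each set. For Bcas1 to Pdgfra it was the highest of its set in ABC and MNO, the middle one in GHI and the lowest in PQR. For Enpp6 to Pdgfra it was the highest in MNO, the middle one in ABC and GHI and the lowest in PQR. For Gpr17 to Pdgfra it was the highest in ABC, GHI and MNO, at 0.150, 0.424 and 0.389, and the middle one in PQR, at 0.402.

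Culture G also stood apart when Bcas1 was set against Sox10, with ratios of 1.23 in G, 2.90 in H and 3.32 in I. The myelin transcript Mbp was 2573 CPM in G against 9866 CPM in H and 8205 CPM in I. Olig1 and Olig2, which are neighbouring genes in the rat, were not in a fixed proportion either. There were 0.738, 0.722 and 0.800 counts of Olig1 per count of Olig2 in A, B and C, and 1.83 to 2.93 in the other 9 cultures, with the highest value in G. This ratio put ABC apart from the other sets without overlap, while the doses overlapped.

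**Figure D3:**
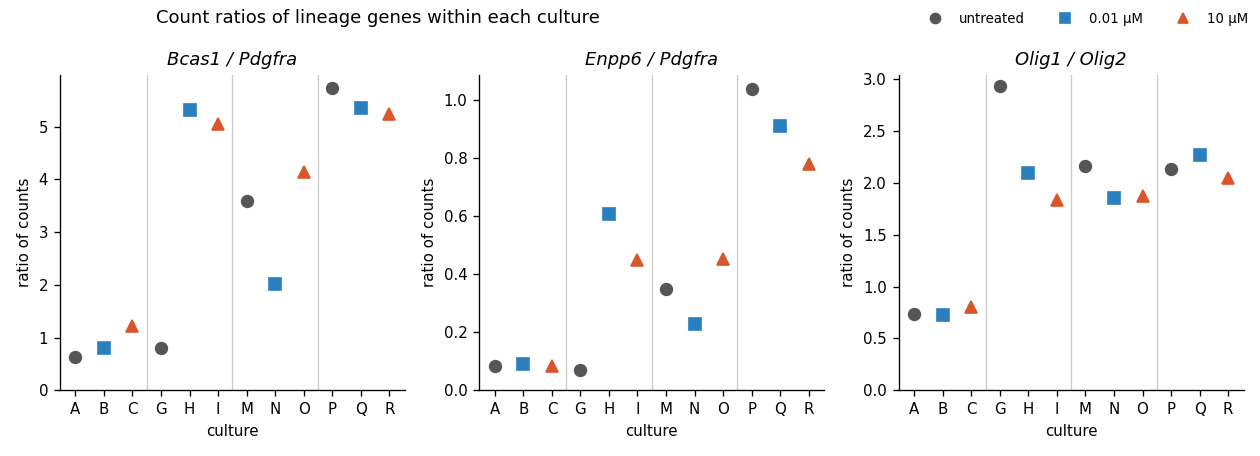
Ratio of the counts of Bcas1 to Pdgfra, Enpp6 to Pdgfra and Olig1 to Olig2 in each of the 12 cultures (linear axes from 0), with grey lines between letter sets and the dose as colour and shape. In culture G the Bcas1 ratio is 0.810 while in H and I it exceeds 5, and in A, B and C the Olig1 to Olig2 ratio is at most 0.800.

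Within the letter sets, the difference between doses was taken for each gene on the log2(CPM + 1) scale, with no test. In low dose vs. untreated no member was higher in all 4 sets, against 4.06% of all genes tested. Only Gpr17 was in high dose vs. untreated (5.22% of genes), with differences of 1.31, 1.01, 0.28 and 0.00 in ABC, GHI, MNO and PQR. For the doses against each other 5 members were higher at the high dose in all 4 sets (11.7% of genes), namely Cspg4, Olig2, Nkx2-2, Gpr17 and Bcas1. Cspg4 was the most even of them, with 0.39, 0.41, 0.25 and 0.45. Gpr17 gave 0.63, 0.65, 0.90 and 0.10, Bcas1 gave 0.48, 0.16, 0.75 and 0.05, and Nkx2-2 gave 0.08, 0.41, 0.51 and 0.02. For Olig2 the values were 0.04, 0.08, 0.35 and 0.04. After removal of the letter set means, the Pearson r between these 5 ran from -0.38 (Cspg4 with Bcas1) to 0.91 (Gpr17 with Bcas1) over all 12 cultures. These r include untreated culture G, which does not enter high dose vs. low dose. They therefore do not measure how far the 5 differences depend on each other, and the 5 should not be read as independent. The differences of Cspg4, Gpr17, Nkx2-2 and Bcas1 went with overlapping conditions, though overlap takes no account of the letter sets.

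Letter set GHI gave the largest differences from untreated for Pdgfra, Cspg4, Bcas1 and Enpp6, and in opposite directions for the early and the late genes. At the low dose it stood at -1.64 for Pdgfra and -1.86 for Cspg4, but at 1.07 for Bcas1 and 1.43 for Enpp6. At the high dose the corresponding values were -1.40, -1.46, 1.23 and 1.23. All of these are differences from culture G. In the other 3 sets Pdgfra differed by 0.18, 0.16 and 0.02 at the low dose and by 0.08, -0.13 and 0.10 at the high dose. Cspg4 differed there by 0.37, 0.04 and -0.35 at the low dose and by 0.76, 0.29 and 0.10 at the high dose. Counting only these 3 sets, 1 member (Pdgfra) was higher in every set in low dose vs. untreated, where 13.9% of all genes were. At the high dose 4 members were (Cspg4, Sox10, Nkx2-2 and Gpr17; 15.1% of genes), and between the doses Cspg4, Olig2, Nkx2-2, Gpr17 and Bcas1 again were (16.5% of genes). In PQR, the set with the highest mean of each member but Pdgfra and Cspg4, the differences in all comparisons lay between -0.35 and 0.45. Both of these bounds were those of Cspg4.

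**Figure D4:**
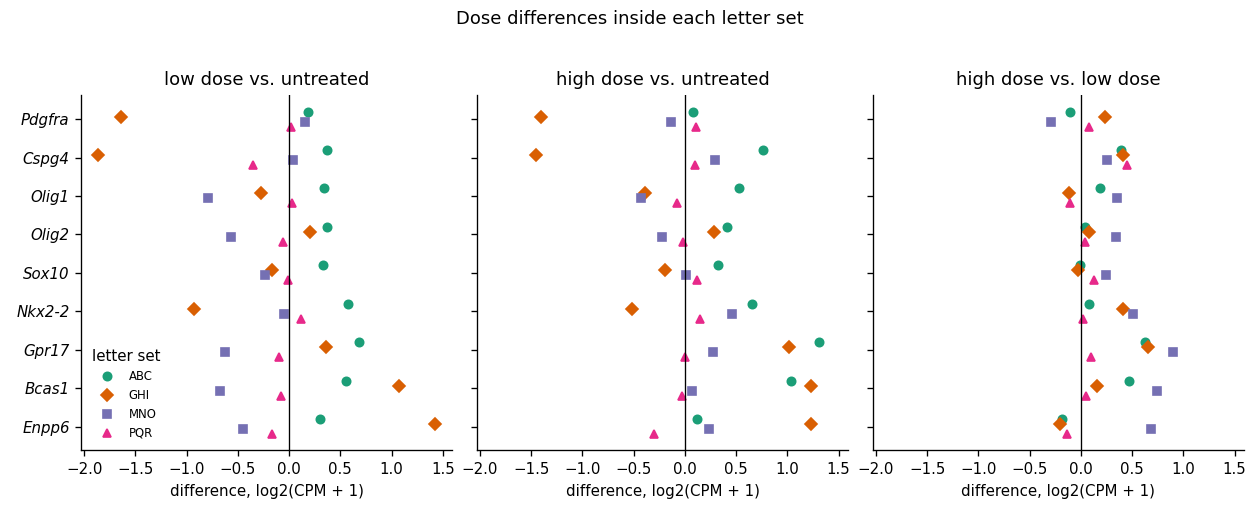
Difference between doses inside each letter set (log2(CPM + 1), 1 point per set) for the 9 genes in the 3 comparisons. Points of GHI (orange diamonds) lie far to the left for Pdgfra (-1.64 and -1.40) and far to the right for Enpp6 (1.43 and 1.23) against untreated culture G, while in high dose vs. low dose, without G, all Cspg4 points lie between 0.25 and 0.45.

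The fit across all genes gave small estimates with wide intervals. The log2 fold changes of the 9 genes in low dose vs. untreated ran from -0.25 (Cspg4) to 0.01 (Sox10), with a median of -0.11 against 0.01 over all genes tested, and 1 of 9 was above 0. Those of high dose vs. untreated ran from -0.14 (Olig1) to 0.33 (Gpr17), with a median of 0.10 against 0.00, and 6 of 9 were above 0. Those of high dose vs. low dose ran from -0.02 (Pdgfra) to 0.51 (Gpr17), with a median of 0.12 against -0.01, and 8 of 9 were above 0. The comparisons share cultures, so their medians are not separate observations.

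The precision differed between the genes. For Pdgfra the 95% interval of high dose vs. low dose ran from -0.54 to 0.50, and for Gpr17 from -1.15 to 2.17. For Enpp6 in high dose vs. untreated it ran from -2.34 to 2.17 (log2 fold change -0.09, SE 1.02). In high dose vs. low dose the interval of every member but Pdgfra reached beyond 1 on the log2 scale in this fit, which held no term for the letter sets. With the letter sets as a block only those of Cspg4 and Gpr17 did, and for Sox10 the interval was then -0.16 to 0.32.

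Without culture G and with no term for the letter sets, all 9 log2 fold changes against untreated were above 0 at both doses. The untreated condition then held A, M and P, so ABC, the lowest set for every member, weighed more in it than in either dose. This fit held no term for that imbalance. The median log2 fold change of the members was 0.191 at the low dose and 0.457 at the high dose, where the medians of all genes were 0.0193 and 0.00618. Nkx2-2 had a log2 fold change of 0.72 (SE 0.22) in high dose vs. untreated with an unadjusted edgeR p of 0.0084 and an adjusted p of 1. It was the only member under 0.05 unadjusted in any of the 3 comparisons without G, where 1.99%, 2.34% and 4.24% of all genes were, in the order of the comparisons above. Gpr17 stood at 0.84 (SE 0.45) in high dose vs. untreated, with an interval from -0.17 to 1.85. No member and no other gene was a DEG in the fit without G, and the adjusted p of every member was at least 0.994 by edgeR. Pdgfra had the narrowest intervals, from -0.29 to 0.44 in low dose and -0.31 to 0.42 in high dose vs. untreated. With the letter sets as a block and without G, the signs were not uniform. Low dose vs. untreated was then above 0 only for Pdgfra (0.08), Sox10 (0.04) and Nkx2-2 (0.19). High dose vs. untreated was below 0 for Olig1 (-0.06) and Enpp6 (-0.04) and above 0 for the other members. Nkx2-2 stood at 0.47 (SE 0.16) for high dose vs. untreated in that fit.

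**Figure D5:**
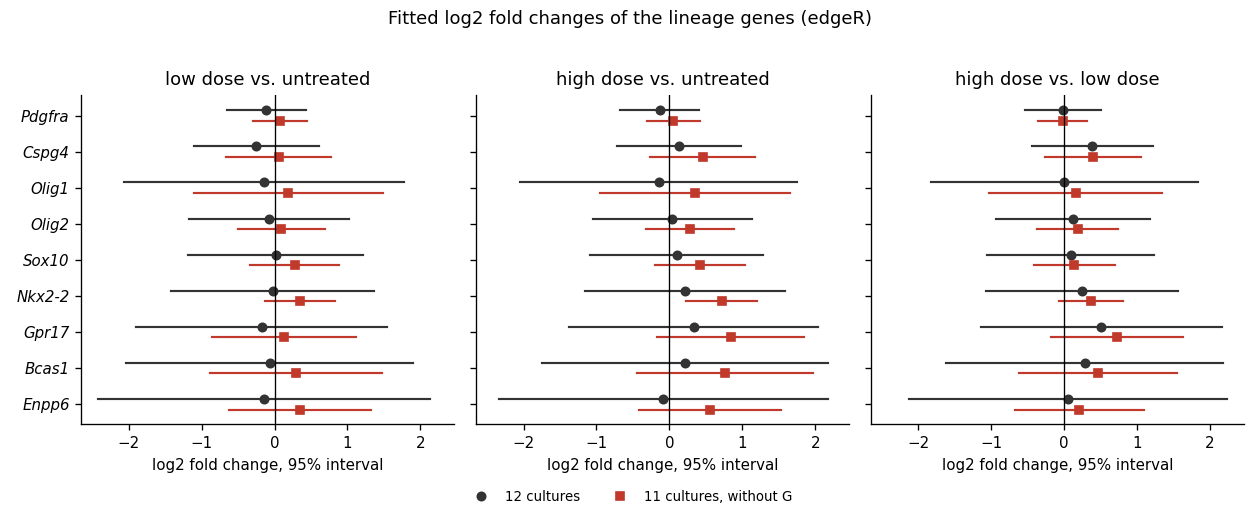
Log2 fold changes with 95% intervals from edgeR for the 9 genes in the 3 comparisons, with all 12 cultures (black circles) and without untreated culture G (red squares). All intervals with 12 cultures cross 0, and without G only that of Nkx2-2 in high dose vs. untreated (0.23 to 1.21) does not. Neither fit held a term for the letter sets, which are uneven between the conditions without G.

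Other genes of the pathway were read from lists written for these cultures, and none of their genes was a DEG or had an unadjusted edgeR p under 0.05 in any comparison. Of 16 OPC surface and matrix genes, 14 were tested, with median log2 fold changes of -0.03 at the low dose, -0.04 at the high dose (both against untreated) and 0.03 between the doses, and this order is kept for the next lists. Sulf2 had the highest median level of the list, 501 CPM, and Matn4 the lowest, 4.37 CPM. The protease inhibitor gene Serpine2 reached 1558 CPM in culture G against at most 572 CPM elsewhere. Ptprz1, a receptor phosphatase of OPCs, reached 1005 CPM against at most 716 CPM, so both stood highest in the same culture as Pdgfra and Cspg4. Matn4, C1ql1 and Rlbp1 also stood highest in G, while the other tested genes of this list peaked in other cultures. Emid1 had its lowest level in G, at 4.67 CPM. Of 21 further lineage regulators 17 were tested, with medians of -0.13, 0.03 and 0.12. Among them Myrf, the factor that switches on myelin genes, had the highest median level, 299.5 CPM, and ranged from 63.7 CPM in A to 425 CPM in P. All 22 genes of growth signals were tested, with medians of -0.11, -0.04 and 0.02. The ligand gene Pdgfa, whose product binds the Pdgfra receptor, varied little, between 23.9 and 41.6 CPM, while the list ran from the Notch ligand Dll3 with a median of 0.705 CPM to the G protein-coupled receptor Gpr37l1 with 460.3 CPM.

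The later stages gave like values. Of 16 genes of newly formed oligodendrocytes 13 were tested, with medians of -0.11, -0.02 and 0.09, and Nfasc, which encodes neurofascin, had the highest median level, 1124 CPM, and Elovl7 the lowest, 5.70 CPM. All 16 myelin genes were tested, with medians of 0.06, 0.06 and -0.02, and the lowest median level was 1.66 CPM for Hapln2. Of the lists for other cells, the 12 neuron markers had medians of 0.37, 0.54 and 0.15, the 10 astrocyte markers -0.21, -0.51 and -0.24, the 10 microglia markers 0.87, 0.82 and 0.01, the 9 fibroblast and pericyte markers tested 0.50, -0.23 and -0.50, the 5 Schwann cell markers tested -0.11, -0.12 and 0.23 and the 10 proliferation genes 0.04, 0.08 and 0.09. Their highest and lowest median levels were those of Eno2 (1543 CPM) and Gad2 (23.6 CPM) among neuron, Gfap (1793 CPM) and Aldh1l1 (8.26 CPM) among astrocyte, C1qa (126 CPM) and Tmem119 (1.87 CPM) among microglia, Mgp (326 CPM) and Abcc9 (0.739 CPM) among fibroblast and pericyte, Cdh19 (9.43 CPM) and Egr2 (2.44 CPM) among Schwann cell and Aurkb (110.5 CPM) and Birc5 (2.35 CPM) among proliferation genes. These medians, like those of the lists before them, include culture G. On the log2(CPM + 1) scale, the median neuron marker differed from untreated in GHI by 4.13 at the low and 4.36 at the high dose. In ABC, MNO and PQR it differed by -0.10, -0.30 and -0.03 at the low dose. At the high dose these values were -0.10, -0.02 and 0.23. No gene of these lists was a DEG. An unadjusted edgeR p under 0.05 was met, each with an adjusted p of 1, by the neuronal gene Stmn2 in high dose vs. untreated (log2 fold change 0.55), by the matrix gene Mgp against untreated at the low dose (0.50) and the high dose (0.35), and by Col3a1 in low dose vs. untreated (2.43). Stmn2 stood at 26.1 CPM in culture G against at least 286 CPM elsewhere. Col3a1 stood at 1.71, 381, 8.57 and 1.66 CPM in untreated A, G, M and P. In low dose B, H, N and Q it stood at 1.54, 4.32, 233 and 4.06 CPM. The high Col3a1 levels in these conditions were thus those of G and N, and the fitted value does not show a common rise at the low dose.

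The genes whose levels ran most like the lineage genes were sought over all genes tested, as a description over 12 cultures that fall into letter sets. Closest to the mean standardized profile of the 9 members was Snx33 (Pearson r = 0.9935), followed by Wipf1 (0.9923), Hip1 (0.992), P3h2 (0.9893) and Sgms2 (0.9882). Snx33 stood at 34.9, 38.3 and 40.9 CPM in A, B and C and at 116, 108 and 116 CPM in P, Q and R. For single members the nearest genes were Glb1l for Pdgfra (0.9866), Stk10 for Cspg4 (0.9823), Ankrd40 for Olig1 (0.9951), RGD1304694 for Olig2 (0.9918), Snx1 for Sox10 (0.9912), RGD1561849 for Nkx2-2 (0.9928), Fgd3 for Gpr17 (0.9818), Ccnjl for Bcas1 (0.996) and Chn2 for Enpp6 (0.9919). Glb1l shared with Pdgfra its peak in culture G, at 137 CPM against 54.0 CPM in the next highest culture, P. Chn2 shared the wide span of Enpp6, from 5.61 CPM in A to 189.7 CPM in P.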

How the data were processed

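Poly(A)-enriched RNA of 12 cultures was sequenced by the authors, who mapped reads with STAR to the rat build rn6 and made a count per gene by featureCounts (tools and build also in the submitters' processing notes, versions not given there). The deposited values are raw counts, before the removal of unwanted variation by RUVseq and the edgeR test that the study describes. No column belonged to other samples. In R 4.3.3, counts were scaled by TMM, 12271 of 17337 genes were kept by filterByExpr, and 1 RUVs factor was estimated from the replicates with all kept genes as controls, since the study states neither the RUV procedure nor the number of factors. The model in edgeR 4.0.16 (quasi-likelihood test, Benjamini-Hochberg over all genes) held the 3 conditions and this factor. Exact permutation tests used 70 arrangements. Alternatives, DESeq2 1.42.0 among them, were recomputed. No 2 libraries agreed within sampling noise. Intervals and depth cover counting error and the spread between cultures only. Gene names and neighbours were read from a RefSeq table of another build than the counts, so no coordinates are given, and all 9 symbols matched it.

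The text names the 9 members, and of the other lists the genes with an unadjusted p under 0.05, the genes with the highest and lowest median level among those tested, and defining markers. It also names the nearest profiles. Serpine2, Ptprz1, C1ql1, Rlbp1, Emid1, Pdgfa, Lims2, Mbp, Mki67 and the fibroblast genes given for cultures G and N were named after their values were seen. The members and lists were chosen with earlier results of these data known. Values of some list genes are not reported here.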

Additional observations from a re-analysis of the deposited data

Results flagged for a closer look

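Of 27 groups of 4 cultures (9 genes in 3 conditions), 1 held a culture far from the others. Olig1 in untreated culture A stood at 5.487 on the log2(CPM + 1) scale (43.9 CPM), and its gap to the nearest untreated culture was 0.921 of the whole range of the condition, above the 95% critical ratio of Dixon for 4 values. About 1 in 20 groups is flagged by chance. Cultures B and C of the same letter set were also the lowest of their conditions for Olig1, at 55.6 and 63.4 CPM.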

How the results depend on the processing

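No member was a DEG under any of the 21 alternatives, and the smallest adjusted p of a member was 0.193, by edgeR for Cspg4 in high dose vs. low dose with the letter sets as a block and culture G left out. The count of DEGs in the whole table was 0 in low dose vs. untreated under every alternative. For high dose vs. untreated it was 1 with 2 RUVs factors, 15 with the block without G and 3 with DESeq2, and between the doses 1, 14 and 1. All other alternatives, including each culture left out in turn, gave 0.

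The letters were not used as a pairing. The deviations of cultures in a letter set from their condition means correlated above 0.1 in 10 of 12 pairs, up to 0.888. The exceptions were both with culture G, at -0.192 with H and -0.0455 with I. Since not every pair passed 0.1 and no label states a pairing, the main model held no block. With the replicate block, Gpr17 had log2 fold changes of 0.66 (SE 0.25) for high dose vs. untreated and 0.60 (SE 0.25) between the doses, with edgeR adjusted p-values of 0.882 and 1. With the block and without G, Cspg4 stood at 0.39 at the high dose and 0.39 between the doses, with edgeR adjusted p-values of 0.392 and 0.193. Nkx2-2 stood at 0.47 at the high dose and Gpr17 at 0.59 between the doses, with edgeR adjusted p-values of 0.382 and 0.265. These 6 values had an unadjusted p under 0.05, which 2.47%, 3.05% and 2.96% of all genes met in the 3 comparisons with the block, and 7.54%, 9.43% and 13.6% with the block and without G. With 2 RUVs factors 4 values did, where 2.30%, 3.78% and 4.05% of genes did. These were Nkx2-2 at 0.62 (unadjusted edgeR p of 0.0013, adjusted p of 0.685) and Gpr17 at 0.94 (0.0453 and 0.931) in high dose vs. untreated, and Cspg4 at 0.40 (0.0292 and 1) and Nkx2-2 at 0.35 (0.0256 and 1) between the doses. Without culture P, Cspg4 stood at 0.54 at the high dose (unadjusted edgeR p of 0.0496, adjusted p of 0.959).

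The direction of the members was not stable. Of 567 log2 fold changes followed, 108 changed sign, and the cause was not tested. Under the 9 alternatives other than leaving out a culture, 30 of 243 values changed sign, all of them against untreated. Between the doses no member changed sign under these alternatives. The values that did are given here. With no factor those of another sign were for low dose Sox10 -0.0784, Bcas1 0.0633, Enpp6 0.0651 and for high dose Cspg4 -0.36, Enpp6 0.0678. With 2 RUVs factors they were for low dose Olig1 0.24, Olig2 0.13, Nkx2-2 0.27, Gpr17 0.23, Bcas1 0.42, Enpp6 0.48 and for high dose Olig1 0.37, Enpp6 0.69. At a minimum of 10 counts in every culture they were for low dose Olig1 0.0553, Olig2 0.0367, Nkx2-2 0.19, Bcas1 0.0941, Enpp6 0.0404 and for high dose Olig1 0.0736, Enpp6 0.0433. With only the 8 cultures compared it was for low dose Nkx2-2 0.0118. With the replicate block they were for low dose Sox10 -0.0224, Gpr17 0.0582, Bcas1 0.19, Enpp6 0.26 and for high dose Cspg4 -0.15, Enpp6 0.28. With the block and without G they were for low dose Pdgfra 0.0800, Nkx2-2 0.19 and for high dose Pdgfra 0.0625. The differences without a model, on the log2(CPM + 1) scale, that changed sign without G were for low dose Pdgfra 0.0193, Olig1 0.11, Olig2 0.0335, Sox10 0.17, Nkx2-2 0.20 and for high dose Pdgfra 0.000604, Cspg4 0.37, Olig1 0.19. These differences took no account of the letter sets, which are uneven between the conditions without G.

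With each culture left out in turn, the log2 fold changes of members that changed sign ranged as follows. For low dose vs. untreated the ranges were Pdgfra -0.45 to 0.0742, Cspg4 -0.77 to 0.14, Olig1 -0.83 to 0.63, Olig2 -0.53 to 0.43, Sox10 -0.50 to 0.61, Nkx2-2 -0.65 to 0.82, Gpr17 -0.73 to 0.75, Bcas1 -0.63 to 0.96, Enpp6 -0.78 to 1.45. For high dose vs. untreated they were Pdgfra -0.47 to 0.0559, Cspg4 -0.40 to 0.54, Olig1 -0.80 to 0.63, Olig2 -0.38 to 0.55, Sox10 -0.39 to 0.69, Nkx2-2 -0.37 to 1.07, Gpr17 -0.16 to 1.25, Bcas1 -0.29 to 1.21, Enpp6 -0.59 to 1.44. Between the doses they were Pdgfra -0.21 to 0.12, Olig1 -0.37 to 0.43, Olig2 -0.0979 to 0.37, Sox10 -0.21 to 0.35, Nkx2-2 -0.11 to 0.75, Bcas1 -0.0543 to 0.74, Enpp6 -0.52 to 0.75. Cspg4 and Gpr17 kept their sign between the doses with every culture left out.

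Every member had at least 53 counts in each culture. The SE of Enpp6 in high dose vs. untreated was 1.02 without and 0.29 with the replicate block.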
